A study of Homo sapiens with 4 samples.

Results

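The tubulins described here at their crosslink sites are 9 genes, the α-tubulins TUBA1A, TUBA1B, TUBA1C and TUBA4A and the β-tubulins TUBB, TUBB2A, TUBB3, TUBB4B and TUBB6. A site was taken as a member when its gene label held 1 of these 9 symbols exactly, whatever its score. The 9 genes held 117 of the 158922 sites immunoprecipitated with PDCD4 and 57 of the 111361 sites immunoprecipitated with IgG, out of 14416 genes with a site in either list. The study used iCLIP, in which ultraviolet light crosslinks protein to RNA and the reverse transcribed cDNAs stop next to the crosslinked nucleotide, in wild-type MCF10A cells, an immortalised line of human breast epithelium grown with serum, epidermal growth factor, insulin and hydrocortisone. The compared groups were an antibody to PDCD4, an inhibitor of the helicase eIF4A, and an isotype IgG control, with 2 replicates each. The replicates of a group were pooled in 1 list, so no spread between replicates could be measured, no test between the groups was made, and every interval below is a 95% interval that covers counting error only. A site is 1 nucleotide and its score is the number of cDNAs there.

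α- and β-tubulin pair into the heterodimers from which microtubules are built, and microtubules carry cargo, form the mitotic spindle and shape the cell. The genes are alike in coding sequence within each family, and TUBA1A, TUBA1B and TUBA1C are near copies of each other there. Cells also control tubulin mRNA by autoregulation, in which free tubulin triggers decay of the mRNAs while ribosomes are translating them, through the first residues of the nascent protein.

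The lists held 409308 cDNAs for PDCD4 and 276139 for IgG. The methods describe a subtraction of IgG crosslink positions from the PDCD4 data before peaks were called, and no position was in both lists for any tubulin. The subtraction acts on the PDCD4 data only, and its part in the ratios and site places below was not tested. All 7 markers of basal-type breast epithelium that were looked up had a site, whereas 0 of 2 blood markers and 0 of 2 hepatocyte markers had one. Their levels differed widely: KRT5 had 352 PDCD4 and 74 IgG cDNAs, KRT17 had 37 and 18, and KRT14 had only 3 and 0.

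There were 5 PDCD4 and 3 IgG tubulin sites with more than 5 cDNAs, which were 4.27% and 5.26% of the tubulin sites, against 1.48% and 0.690% of all sites of the lists. They are shown here because they are the positions with the most evidence in these genes. Each is given as 30 bases of the RNA strand, 5′ to 3′, written with T, with the crosslinked nucleotide in capitals, from the GRCh38 genome. The 5 PDCD4 sites were these:
TUBA1B, 3′UTR, chr12:49127899-49127928, minus strand, 9 cDNAs: tcatgctcccagaatTtcagcttcagctta
TUBB, coding, chr6:30724311-30724340, plus strand, 7 cDNAs: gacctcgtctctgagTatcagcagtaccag
TUBB, 3′UTR, chr6:30724958-30724987, plus strand, 6 cDNAs: tctccctccaagctcTactctggaggagtc
TUBB, 3′UTR, chr6:30725196-30725225, plus strand, 7 cDNAs: tactgccacatcagtGtttgagtcagtccc
TUBB4B, coding, chr9:137242521-137242550, plus strand, 6 cDNAs: ggccaaggggcactaCacagaaggcgcgga

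The 3 IgG sites above 5 cDNAs were all in the 3′UTR of TUBB:
TUBB, chr6:30724581-30724610, plus strand, 6 cDNAs: tctcctctctctttcCactctgggaaacct
TUBB, chr6:30725238-30725267, plus strand, 7 cDNAs: gaaccctcctccatcTtttttgcaacatct
TUBB, chr6:30725308-30725337, plus strand, 6 cDNAs: ggttttgttctatccTacatttgagatttc

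The site in TUBA1B lay 45 nt after the stop codon, and the TUBB 3′UTR sites lay 576 and 814 nt after the stop codon for PDCD4 and 199, 856 and 926 nt after it for IgG. The crosslinked base was T at 3 of the 5 PDCD4 sites. Over all tubulin sites it was T at 62 of 117 in the PDCD4 list (53.0%) and at 27 of 57 in the IgG list (47.4%, with an interval of 35.0 to 60.1). T made up 22.8% of the bases of the 9 canonical transcripts, and 46.7% of all PDCD4 sites and 51.6% of all IgG sites. The tubulin sites thus differed from the base content of their transcripts in both immunoprecipitations, and the PDCD4 share of the tubulins lay inside the interval of the IgG share.

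The tubulins together took a slightly larger share of the PDCD4 list than of the IgG list. They had 312 PDCD4 cDNAs, or 7.62 per 10000 cDNAs of the list, and 167 IgG cDNAs, or 6.05 per 10000. The log2 ratio of these shares, PDCD4 over IgG with a pseudocount of 1, was 0.33 (0.06 to 0.60), a fold of 1.26. Without TUBB it was 0.06 (-0.28 to 0.41), from 168 and 108 cDNAs, an interval that includes both 0 and the full value of 0.33. TUBB was left out after the data were seen. The β members had 225 and 106 cDNAs and a log2 ratio of 0.51 (0.18 to 0.84), and the α members had 87 and 61 and a log2 ratio of -0.06 (-0.53 to 0.41). The interval of the difference between the β and the α members reached 0, at 0.57 (-0.00 to 1.15).

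Of the 9 genes 6 had the minimum of 10 cDNAs over both lists at which a gene's ratio was read. No tubulin had a log2 ratio of at least 1, which 18.8% of the 9594 genes with that minimum had. One, TUBB4B, had a log2 ratio of -1 or less, against 18.1% of genes. The interval lay above 0 for 1 tubulin, TUBB, against 18.0% of genes, and below 0 for TUBB4B, against 23.3% of genes. The median over the 6 genes was 0.02, and over all genes with the minimum it was -0.08, with quartiles of -0.75 and 0.70. By these counts the tubulins lay among the bulk of the genes in the lists. The 5 genes nearest to the members' median in both lists, out of 9588 compared over these 2 values, were C4orf32, DEDD2, RRM2, SHISA5 and TCTN3, each with 15 PDCD4 and 14 IgG cDNAs.

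**Figure D1:**
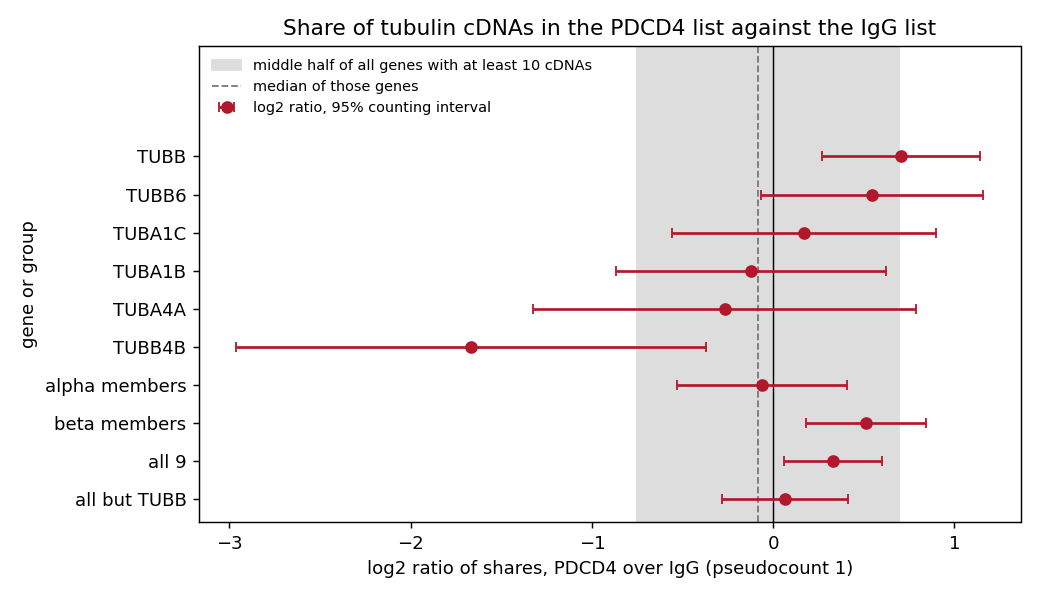
Log2 ratio of the share of cDNAs in the PDCD4 list over that in the IgG list (x axis) for the 6 tubulins with at least 10 cDNAs and for 4 groups (y axis), with 95% counting intervals. The grey band is the range between the quartiles of the 9594 genes, from -0.75 to 0.70, and the dashed line is their median of -0.08. TUBB sits at the upper edge of the band and TUBB4B below it.

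The reading changed when only strong sites were kept. At scores above 5, the filter named in the methods, the tubulins had 35 PDCD4 and 19 IgG cDNAs, which were 18.1 and 38.2 per 10000 cDNAs of the filtered lists, and the log2 ratio turned to -1.11 (-1.90 to -0.32). The filtered lists kept 4.72% of the PDCD4 cDNAs and 1.80% of the IgG cDNAs, but 11.2% and 11.4% of the tubulin cDNAs. The direction of the tubulin ratio therefore held for all listed sites and not for the strong ones.

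Among the α-tubulins, TUBA1B (ENSG00000123416, chr12:49127782-49131397, minus strand) had 33 PDCD4 cDNAs at 10 sites and 24 IgG cDNAs at 6 sites. Its log2 ratio was -0.12 (-0.87 to 0.62), at percentile 48.3 of all genes with the minimum. In the PDCD4 list its cDNAs were mostly in the 3′UTR: 4 sites with 17 cDNAs lay 12 to 97 nt after the stop codon, in a 3′UTR of 176 nt, against 1 IgG site of 4 cDNAs. A further 2 PDCD4 sites, with 4 cDNAs, were in a 3′UTR only by another transcript and lay in intron 1 of the canonical one. In the coding sequence the order was turned, with 12 PDCD4 cDNAs at 4 sites and 16 IgG cDNAs at 4 sites.

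TUBA1C (ENSG00000167553, chr12:49188736-49274600, plus strand) had 39 PDCD4 cDNAs at 16 sites and 23 IgG cDNAs at 10 sites, and a log2 ratio of 0.17 (-0.56 to 0.90). The lists fell on different parts of the gene. The PDCD4 list had 31 of its 39 cDNAs in the coding sequence and 6 in introns, while the IgG list had 9 of 23 in the coding sequence and 10 in introns. The log2 ratio was 0.71 (-0.19 to 1.61) over the exons and -1.22 (-2.59 to 0.15) over the introns, a difference of 1.93 (0.30 to 3.57). All genes together had 0.58 over exons and -0.44 over introns, so a contrast of this direction was not particular to TUBA1C. Its 3′UTR, the longest of the 9 at 1373 nt, held 1 PDCD4 site of 2 cDNAs and 3 IgG sites of 4 cDNAs, all within the first 200 nt.

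TUBA4A (ENSG00000127824, chr2:219249710-219277902, minus strand), the α-tubulin with the most diverged coding sequence of the 4, had 15 PDCD4 cDNAs at 6 sites, all coding. It had 12 IgG cDNAs at 4 sites, 9 of them coding and 3 in intron 1, and its log2 ratio was -0.27 (-1.32 to 0.79). TUBA1A (ENSG00000167552, chr12:49184686-49189080, minus strand), which is best known from developing neurons, had no PDCD4 site and 1 IgG site of 2 cDNAs. The count of 0 allows up to 3 PDCD4 cDNAs, or 0.0733 per 10000, and the 2 IgG cDNAs were under the same floor of 3, so no ratio was read for it.

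Among the β-tubulins, TUBB (ENSG00000196230, chr6:30717435-30725538, plus strand) was the member with the most cDNAs in both lists: 144 PDCD4 cDNAs at 53 sites, 46.2% of the tubulin total, and 59 IgG cDNAs at 18 sites, 35.3% of it. Its log2 ratio was 0.71 (0.27 to 1.14), at percentile 75.2. With scores above 5 it turned to -1.89, from 20 and 19 cDNAs, with an interval below 0, and its interval included 0 without sites of shared sequence, at 0.46 (-0.06 to 0.98), and with exonic sites against the exonic totals, at 0.23 (-0.22 to 0.67). Its ratio was above 0 in the coding sequence and the 3′UTR, with 51 against 18 coding cDNAs, a log2 ratio of 0.88 (0.13 to 1.64), and 84 against 33 cDNAs in the 3′UTR, a log2 ratio of 0.75 (0.18 to 1.33). The difference between these was 0.13 (-0.82 to 1.08). Most of the PDCD4 coding cDNAs were at sites whose next 30 bases occur elsewhere, and most of the IgG coding cDNAs were not. The coding ratio and this difference therefore cannot be given to TUBB alone. No PDCD4 site and 1 IgG site, of 4 cDNAs, lay in its introns.

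Within TUBB the sites of the lists had different places. The PDCD4 coding cDNAs lay late in the reading frame: no site lay before codon 167, codons 114 to 226 held 9 cDNAs, codons 227 to 339 held 20 and the codons from 340 on held 22. The IgG counts over the same stretches were 10, 4 and 0, with 4 further cDNAs in codon 61. Most of the PDCD4 coding cDNAs were at sites of shared sequence, so their places cannot be given to TUBB alone. In the 3′UTR of 1025 nt, successive windows of 200 nt after the stop codon held 28, 13, 26, 5 and 12 PDCD4 cDNAs and 14, 4, 0, 0 and 15 IgG cDNAs. The windows from 401 to 800 nt thus held PDCD4 sites and no IgG site. The 5′UTR held 9 PDCD4 cDNAs, 8 of them at 3 sites 97 to 100 nt before the start codon, and 4 IgG cDNAs.

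**Figure D2:**
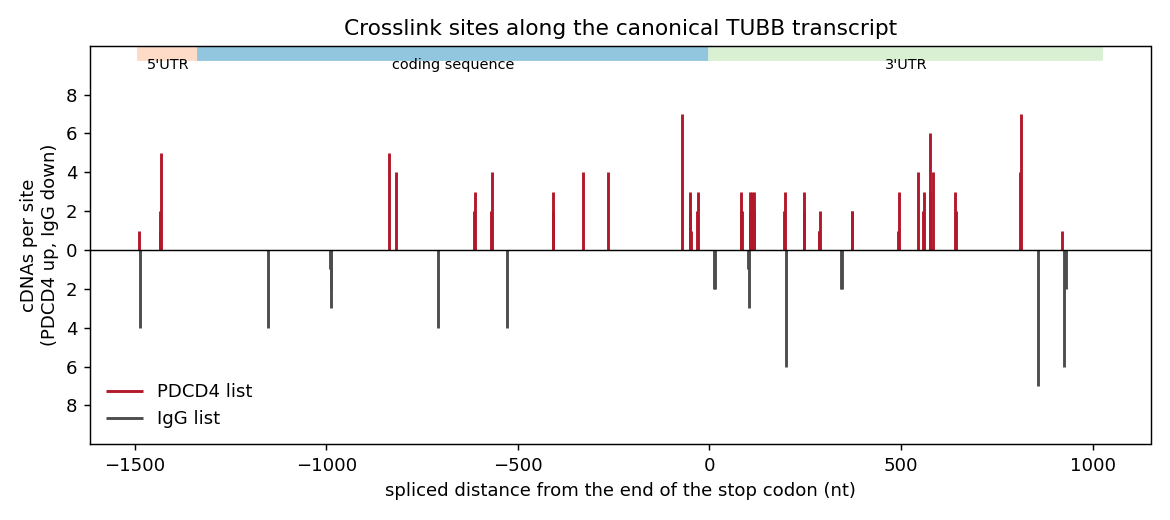
cDNAs at each crosslink site of TUBB (y axis, PDCD4 upwards and IgG downwards) against the spliced distance from the end of the stop codon in nt (x axis), with the regions of the canonical transcript as a bar at the top. PDCD4 sites gather in the second part of the coding sequence and along the 3′UTR, and the window from 401 to 800 nt after the stop codon has no IgG site.

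TUBB was also the gene whose sites stood close together. When PDCD4 sites within 20 nt of each other were joined, its 53 sites formed 20 clusters, and 49 of the 53 had a neighbour. The cluster with the most cDNAs spanned 41 nt, 543 to 583 nt after the stop codon, with 22 cDNAs at 6 sites. A coding cluster at chr6:30724326-30724368 had 18 cDNAs at 6 sites, most of them at sites whose next 30 bases recur in the pseudogene TUBBP1. The cluster with the most sites had 8 of them, with 16 cDNAs in 12 nt, 105 to 116 nt after the stop codon, and it is shown for its run of T, with the 8 PDCD4 sites in capitals:
TUBB, 3′UTR, chr6:30724493-30724522, plus strand: atcttgtttTTTgTTtTttCTtctgggggg

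Of these 8 sites 7 were T and the other was C. The IgG list had 4 cDNAs 101 and 104 nt after the stop codon, directly before this cluster. Of the 53 PDCD4 sites in TUBB, 8 lay within 5 nt of an IgG site and 15 within 20 nt. IgG positions had been subtracted from the PDCD4 data beforehand, and the part of this step in the distances was not tested. Over all tubulins 9 of 117 PDCD4 sites lay within 5 nt of an IgG site and 21 within 20 nt.

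TUBB6 (ENSG00000176014, chr18:12307669-12344320, plus strand) followed, with 66 PDCD4 cDNAs at 28 sites and 30 IgG cDNAs at 13 sites, and a log2 ratio of 0.54 (-0.07 to 1.16). It was unlike TUBB in where they fell. None of its sites in either list had another site of that list within 20 nt, and no site had more than 4 cDNAs. Introns held 38 of the 66 PDCD4 cDNAs and 23 of the 30 IgG cDNAs, with a log2 ratio of 0.13 (-0.60 to 0.87). Intron 3, of 14013 nt, held 33 PDCD4 cDNAs at 14 sites and 20 IgG cDNAs at 9 sites.

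The exons of the canonical TUBB6 transcript held 24 PDCD4 cDNAs at 10 sites and no IgG cDNA. Against a floor of 3 cDNAs over the IgG list this was 5.40-fold higher, a value that leaves out the counting error of the 24 cDNAs. The IgG list did have 7 cDNAs at 3 sites in exons of other TUBB6 transcripts, downstream of the canonical end, and with those the log2 ratio over exons was 1.29 (0.16 to 2.42). The difference between exons and introns was 1.16 (-0.19 to 2.50), an interval that includes 0. These splits of TUBB6 were made after its values were seen.

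TUBB4B (ENSG00000188229, chr9:137241287-137243707, plus strand), a widely expressed β-tubulin, was the tubulin with the lowest ratio among those read. It had 6 PDCD4 cDNAs at 1 site and 14 IgG cDNAs at 4 sites, all coding, and a log2 ratio of -1.67 (-2.96 to -0.37), at percentile 6.54. TUBB exceeded it by 2.37 (1.01 to 3.74) on the log2 scale. The order of the ratios was TUBB, TUBB6, TUBA1C, TUBA1B, TUBA4A and TUBB4B, and the interval of the difference included 0 for each pair of neighbours in it. The PDCD4 site of TUBB4B, in codon 106, was 2 nt from an IgG site of 3 cDNAs in codon 107.

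TUBB3 and TUBB2A had too few cDNAs for a ratio. TUBB3 (ENSG00000258947, chr16:89921392-89938761, plus strand), which is used as a marker of neurons, had 2 PDCD4 sites of 3 cDNAs each and 1 IgG site of 3 cDNAs in intron 1. All 3 sites also carried the label of an overlapping gene, RP11-566K11.2, and cannot be given to TUBB3 alone. TUBB2A (ENSG00000137267, chr6:3153497-3157544, minus strand) had 1 PDCD4 site of 3 cDNAs, in codon 443 near the stop codon, and no IgG site.

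Levels were compared between genes per kb of spliced canonical transcript and per 10000 cDNAs of the list. TUBB had an exonic PDCD4 level of 1.40 (1.18 to 1.65), above all other members. TUBA1B followed with 0.435 (0.292 to 0.625), TUBB6 with 0.312 (0.200 to 0.464) and TUBA1C with 0.286 (0.197 to 0.401), and the intervals of these 3 overlapped. TUBA4A had 0.179, TUBB4B 0.0938, TUBB3 0.0859 and TUBB2A 0.0454. In the IgG list TUBB was again at the top with 0.792 (0.597 to 1.03), and its interval overlapped that of TUBA1B at 0.534 (0.342 to 0.795). RNA abundance was not analysed here, and its part in these levels was not tested.

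**Figure D3:**
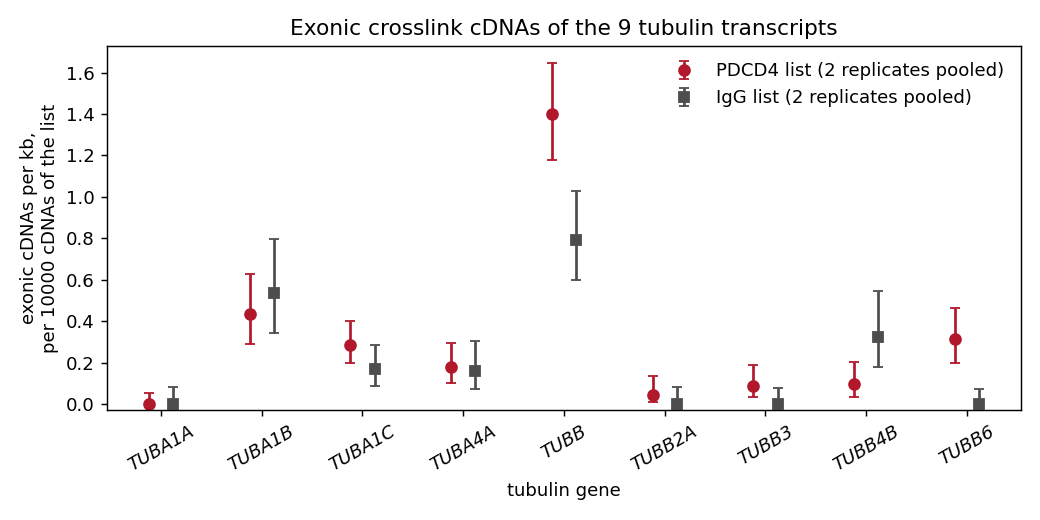
Exonic cDNAs per kb of canonical transcript and per 10000 cDNAs of the list (y axis) for each of the 9 tubulins (x axis), PDCD4 as circles and IgG as squares, each 1 pooled value with its 95% Poisson interval. TUBB is highest in both lists, at 1.40 and 0.792, and the TUBB6 exons have PDCD4 cDNAs and no IgG cDNA.

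The tubulin cDNAs were split differently between exons and introns in the 2 lists. Of the PDCD4 cDNAs 46.5% (41.0 to 52.0) were coding, 35.9% (30.8 to 41.4) were in 3′UTRs, 2.88% in 5′UTRs and 14.1% (10.7 to 18.4) in introns. Of the IgG cDNAs 41.3% (34.1 to 48.9) were coding, 26.9% (20.8 to 34.1) in 3′UTRs, 5.99% in 5′UTRs and 25.7% (19.7 to 32.9) in introns. The log2 ratio was 0.54 (0.23 to 0.84) over exons, with 268 and 124 cDNAs, and -0.54 (-1.13 to 0.06) over introns, with 44 and 43. The difference between exons and introns was 1.07 (0.40 to 1.75). Between the coding sequence and the 3′UTR it was -0.24 (-0.88 to 0.41), an interval that includes 0.

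The same contrast between exons and introns ran through the whole lists. Over all genes the log2 ratio was 0.58 for exonic and -0.44 for intronic cDNAs. Measured against the exonic cDNAs of each list, the exonic tubulin ratio was -0.038 (-0.34 to 0.27), and against the intronic cDNAs the intronic one was -0.09 (-0.69 to 0.51). Both intervals included 0, and the intronic one was wide, from 44 and 43 cDNAs, of which TUBB6 had 38 and 23. Within exons the tubulins did not follow the lists evenly. The coding ratio of the tubulins was 0.49 (0.08 to 0.90) where that of all coding cDNAs was 1.11, which left -0.61 (-1.02 to -0.20) against the coding cDNAs of the lists. Their 3′UTR ratio was 0.73 (0.23 to 1.22) where that of all 3′UTR cDNAs was 0.22, which left 0.51 (0.01 to 1.00).

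**Figure D4:**
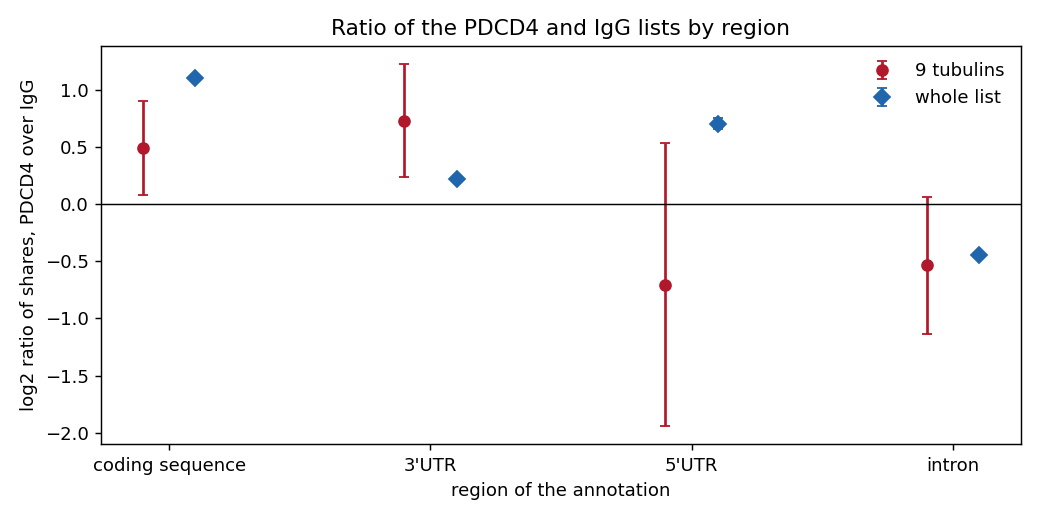
Log2 ratio of shares, PDCD4 over IgG (y axis), by region of the annotation (x axis) for the 9 tubulins (circles) and for all cDNAs of the lists (diamonds), with 95% counting intervals, which for the whole lists are mostly narrower than the symbol. The tubulins lie below the lists in the coding sequence, 0.49 against 1.11, and above them in the 3′UTR, 0.73 against 0.22. Most of the tubulin 3′UTR cDNAs are those of TUBB.

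Tubulin genes have 4 exons in these transcripts, and the last is by far the longest. It held 88.1% of the exonic PDCD4 cDNAs and 87.0% of the exonic IgG cDNAs, and it made up 79.0% of the exonic positions. The first 15 codons, which include those that encode the residues read in autoregulation, had no site in either list, and the earliest coding site was in codon 20, in TUBB6. These codons are a small part of the 17450 positions of the canonical transcripts, which held 95 PDCD4 and 35 IgG sites. Their lack of sites was therefore not read as a result. Of the 13 PDCD4 sites in the first 3 exons none lay in the last 60 nt of its exon, a stretch that made up 1620 of the 3663 positions of those exons. Of the 4 IgG sites there 1 did.

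Sequence shared between the members limits what a label can say. The coding sequences of TUBA1A, TUBA1B and TUBA1C were 96.3% to 97.3% identical in pairs, and those of the β members 81.3% to 88.7%. The 30 bases that follow a site, along the spliced transcript, occurred again somewhere in the genome or in another transcript for 31 of the 117 PDCD4 sites, which held 28.8% (24.1 to 34.1) of the cDNAs, and for 12 of the 57 IgG sites, which held 20.4%. With 50 bases it was 7 PDCD4 sites, or 7.69% of the cDNAs, and 3 IgG sites, or 3.59%. At 30 bases 11 PDCD4 sites shared their sequence with another of the 9 genes, and all 11 were in α-tubulins. The 18 such sites in TUBB, with 55 cDNAs, shared theirs with no other member. For its coding site of 7 cDNAs the other copy was in the pseudogene TUBBP1.

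The gap between the listed sites and the transcripts depended on the length compared. At 30 bases, 39.5% of the positions of the canonical transcripts recurred elsewhere, against 30 of 95 exonic PDCD4 sites (31.6%) and 10 of 35 exonic IgG sites (28.6%). At 50 bases, 27.0% of the positions did, against 6 of the 95 (6.32%) and 3 of the 35 (8.57%). By gene, 72.9% of the coding positions of TUBA1B recurred at this length, 75.6% of TUBB2A, 56.4% of TUBA1A, 55.0% of TUBA1C and 33.3% of TUBB, but 11.7% of TUBB4B, 11.3% of TUBB3, 8.24% of TUBA4A and 1.49% of TUBB6. TUBB2A, with 3 PDCD4 cDNAs, and TUBA1B, with 33, had the least unique coding sequence, and TUBB3 and TUBB4B, with 6 each, had much of it. Of the 33 cDNAs of TUBA1B 12 were coding. How reads that match several places were treated is not given in the sources used here, and its part in the levels was not tested.

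**Figure D5:**
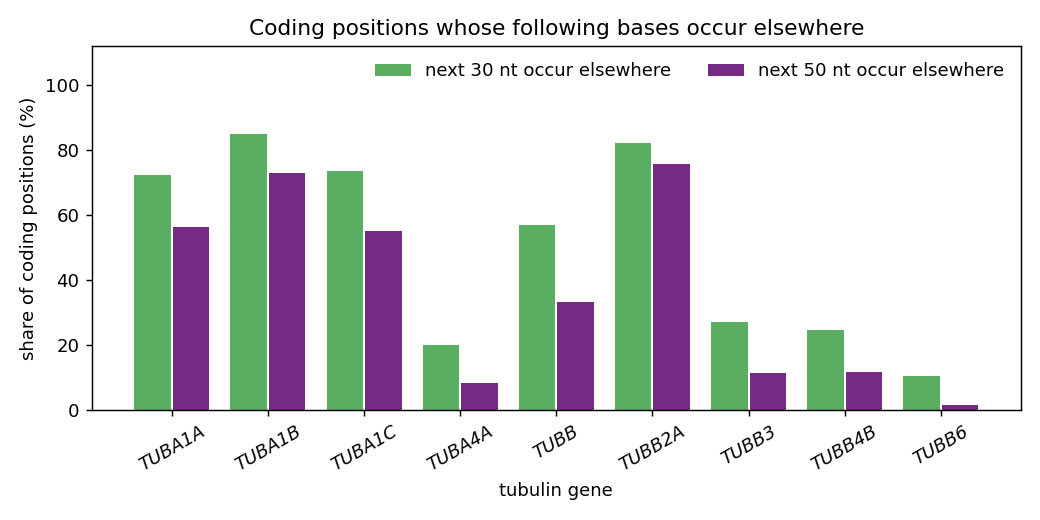
Share of coding positions in percent (y axis, from 0) at which the next 30 or 50 bases of the transcript occur elsewhere in the genome or transcriptome, for each tubulin (x axis). TUBA1B and TUBB2A have the highest shares at 50 bases, 72.9% and 75.6%, and TUBB6 the lowest, 1.49%.

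Where only positions with a unique 50 bases were counted, TUBB had 68.3 exonic PDCD4 cDNAs per kb (57.0 to 81.1) and TUBA1B 40.9 (26.2 to 60.8), on 1889 and 587 such nt. The levels of TUBA1C, TUBB6 and TUBA4A were then 15.4, 13.3 and 7.94, and those of TUBB2A, TUBB4B and TUBB3 were 5.42, 4.46 and 3.99. On this scale TUBA1B lay above TUBA1C, whose interval ended at 21.8 and which it did not separate from per kb of whole transcript. These levels are not scaled to the size of the list, 409308 cDNAs for PDCD4 and 276139 for IgG, so they do not compare the lists. On the unique positions both lists gave TUBA1B 24 cDNAs, or 40.9 per kb, and the IgG list gave TUBA1C 6.45 per kb. TUBA1A had 822 unique nt and no cDNA on them in either list.

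One TUBA1C site is shown for a stretch that is identical in its paralogs. The 5 PDCD4 cDNAs of this site, its largest, were at chr12:49272358, in codon 161, and the 30 bases around it were the same in TUBA1A and TUBA1B, neither of which had a PDCD4 site there. The TUBA1B copy had 4 IgG cDNAs within 5 nt of the matching base. The TUBA4A copy differed by A3T, T9C and G21A, counted from 1 at the first base shown with the TUBA1C base first, which are the capitals:
TUBA1C, chr12:49272349-49272378, plus strand: tcagttgattatggcaagaagtccaagctg
TUBA4A, chr2:219251198-219251227, minus strand: tcTgttgaCtatggcaagaaAtccaagctg

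The PDCD4 site of TUBB4B could be told from its paralogs. Its 30 bases differed from TUBB by G1A, G4C, A16G and G22C and from TUBB6 by G1A, A13G and A16G, counted in the same way with the TUBB4B base first. TUBB6 had 2 PDCD4 cDNAs within 5 nt of the matching base, and TUBB, TUBB2A and TUBB3 had none in either list:
TUBB4B, chr9:137242527-137242556, plus strand: ggggcactacacagaaggcgcggagctggt
TUBB, chr6:30723371-30723400, plus strand: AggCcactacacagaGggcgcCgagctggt
TUBB6, chr18:12325098-12325127, plus strand: AgggcactacacGgaGggcgcggagctggt

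The annotation held 50 tubulin pseudogenes by name. One PDCD4 site, of 3 cDNAs, lay inside one of them, TUBAP11, under the label of another gene, and no IgG site did.

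The genes that fold, bind and modify tubulin were read beside the members. Of 13 other tubulins, 5 had a site and only TUBG2, a γ-tubulin, had the minimum of 10 cDNAs, with 17 PDCD4 and 4 IgG cDNAs and a log2 ratio of 1.28 (-0.15 to 2.71). The other 2 with the most PDCD4 cDNAs were TUBD1, with 5 against 3, and TUBG1, with 3 against 0.

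Of 21 genes of tubulin folding, 17 had the minimum, of which 6 had a log2 ratio of at least 1 (18.8% of all genes) and 1 of -1 or less (18.1% of all genes), with a median of 0.65. TBCD, a tubulin cofactor, had 226 and 149 cDNAs and a log2 ratio of 0.03. Of the 6 with high ratios 4 were subunits of the chaperonin TRiC, which folds actin and tubulin. TCP1 had 58 against 9 cDNAs (1.99, 1.03 to 2.96) and CCT4 had 33 against 6 (1.71, 0.54 to 2.89). CCT6A had 30 against 8 (1.22, 0.15 to 2.29). CCT5 had 37 PDCD4 cDNAs and no IgG cDNA (4.68, 1.82 to 7.54). The other 2 were TBCB and VBP1, named after their values were seen, each with 14 PDCD4 cDNAs and no IgG cDNA. CCT3 had 90 against 38 cDNAs and a log2 ratio of 0.65 (0.11 to 1.20). The remaining 3 TRiC subunits, named after their values were seen, were not higher beyond their intervals: CCT8 had 26 against 9 cDNAs (0.87, -0.18 to 1.91), CCT2 22 against 19 (-0.37, -1.23 to 0.50) and CCT7 20 against 26 (-0.93, -1.75 to -0.11), the last with an interval below 0.

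Of 22 microtubule-associated proteins, 20 had the minimum, with 4 at 1 or more, 1 at -1 or less and a median of 0.25, shares near the 18.8% of all genes in the first case and below the 18.1% in the second. MAP4, which stabilises microtubules, had 197 and 148 cDNAs and a log2 ratio of -0.16 (-0.46 to 0.15). NUMA1, which organises the spindle poles, had 185 and 32 (1.93, 1.39 to 2.46), CLASP1, which acts at microtubule plus ends, had 132 and 160 (-0.84, -1.17 to -0.51), and CLIP2 had 33 and 8 (1.35, 0.29 to 2.41).

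All 9 genes of the γ-tubulin complex had the minimum, with 2 at 1 or more and 1 at -1 or less, where 18.8% and 18.1% of all genes were, and a median of -0.05. TUBGCP2 had 88 PDCD4 and 3 IgG cDNAs (3.91, 2.46 to 5.35), while TUBGCP3 had 40 and 54 (-0.99, -1.58 to -0.41) and TUBGCP6 had 39 and 27 (-0.05, -0.75 to 0.64). Of 12 genes of tubulin modification and autoregulation 7 had the minimum and 0 were past 1 in either direction, with a median of -0.03. The highest of these in the PDCD4 list were TTLL12 with 51 against 25 cDNAs, TTLL5 with 50 against 51, and TTL, the tubulin tyrosine ligase, and SCAPER, an autoregulation factor, each with 47, against 32 and 49.

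The other cytoskeletal mRNAs compared had larger ratios than any tubulin, apart from ACTG1. ACTB, β-actin, had 1079 PDCD4 and 179 IgG cDNAs, a log2 ratio of 2.02 (1.79 to 2.24). VIM, the intermediate filament protein vimentin, had 597 and 13, a log2 ratio of 4.85 (4.08 to 5.61). ACTG1, γ-actin, had 316 and 131, a log2 ratio of 0.70 (0.40 to 0.99), next to that of TUBB.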

How the data were processed

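PDCD4 and IgG iCLIP (2 replicates each) from MCF10A cells were analysed. The authors called peaks with iCount against Ensembl release 88 (GRCh38) and deposited 1 list per immunoprecipitation that pools the replicates. The deposited score counts cDNAs at 1 nucleotide and was not scaled to depth. Only sites that passed their false discovery rate are listed, and scores start at 1. The filter on scores above 5 was applied here only as an alternative. Settings for alignment and for reads with several matches are not given in the sources used here.

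Sites were assigned to GENCODE release 44 (same build) in the order coding, 3′UTR, 5′UTR, ncRNA, intron, and for distances to the canonical transcript. No site lay outside the chromosomes of the genome (0 of all sites). Ratios are log2 of summed scores per 10000 cDNAs with a pseudocount of 1, read for genes with at least 10 cDNAs. Shares have 95% Wilson intervals, counts Poisson intervals and ratios intervals from the counting error of both counts. The cDNAs are not independent samples, so these cover counting error only. The 20, 30 and 50 bases after a site were searched on both strands of the main chromosomes and in all transcripts. Scripts were tested on simulated data (Python 3.11.15, numpy 2.4.6, pandas 2.3.3, scipy 1.17.1).

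The members, gene lists and comparisons were chosen with earlier results of these data known. Named are all 9 members, the 3 genes of each list with the most PDCD4 cDNAs, list genes past a log2 ratio of 1 with at least 30 cDNAs (1 of them is not reported here), the 5 nearest genes, and ACTB, ACTG1 and VIM. Splits by place within TUBB, TUBB6 and TUBA1C were chosen with their values in view. The alternatives tried were a score above 5, numbers of sites, other totals, unshared or singly labelled sites only, a pseudocount of 5, exonic sites only, other windows, 1 transcript per gene and, added after seeing the data, all members but TUBB.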

Additional observations from a re-analysis of the deposited data

How the results depend on the processing

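The log2 ratio of the 9 tubulins together, 0.33, became -1.11 with scores above 5 and -0.038 with exonic sites against the exonic total, the second with an interval from -0.34 to 0.27. It ranged from 0.06 to 0.51 under the other alternatives, the lowest without TUBB and the next, 0.17 (-0.14 to 0.48), without sites whose next 30 bases occur elsewhere. The number of tubulins with a log2 ratio of at least 1 was 0 under every alternative run, but with scores above 5 only TUBB still had 10 cDNAs and was counted. The coding share of PDCD4 tubulin cDNAs, 46.5%, was 37.1% with scores above 5 and 32.9% without sites of shared sequence, and within its interval otherwise. The share at sites with shared sequence, 28.8%, was 40.7% with 20 bases, 7.69% with 50 bases and 20.0% with scores above 5. Among single genes, TUBB went from 0.71 to -1.89 with scores above 5 (20 against 19 cDNAs) and TUBB4B from -1.67 to 0.85 (6 against 0), and 2 other values moved beyond their interval: TUBB to 0.23 with exonic sites only and TUBA1B to 1.37 with scores above 5 (9 against 0). Without shared sites TUBB was at 0.46 (-0.06 to 0.98). The other 35 stayed within their intervals. The cause of these changes was not tested. No paired analysis was possible because each list pools its replicates, and for the same reason no replicate could be left out. Most tubulin sites had 2 or 3 cDNAs, so counts of a few cDNAs decide every value for TUBA4A, TUBB4B, TUBB3, TUBB2A and TUBA1A.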
